A study of Mus musculus with 4 samples.

Results

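The distal Dlk1-Dio3 miRNAs lie on mouse chromosome 12, from miR-379 at one end to miR-410 at the other. Members were all mouse miRNA names of the array, starred names included, that met a rule of position. Their first probe mapping fell on chromosome 12 of mm9, in a window from just before miR-379 to just after miR-410. The rule used no measured value, but the members were chosen with earlier results of these data known. The rule gave 52 of the array's 650 miRNA names, read by 145 of its 1857 probes and 1040 of its 13000 miRNA spots. Their probes lay between positions 110947281 and 110981994, their brightest probes spanned 34.7 kb, and every probe of every member had 1 mapping in the files.

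The samples were 4 cultures of untreated mouse embryonic fibroblasts (MEFs) of strain C57BL/6J, each hybridised to 1 single-colour (Cy3) Agilent miRNA array. The knockout (KO) cultures were 1 Lats2-/- clone at PDL 70 and 96, and the wild-type (WT) cultures were 1 Lats2+/+ clone at PDL 68 and 90. PDL is taken here as population doubling level, the number of doublings a culture has been through. Each genotype was therefore 1 clone, its arrays were the same clone at different PDL, and a difference between genotypes and a difference between clones cannot be told apart. Without PDL in the model, the tests of KO against WT used the spread between the 2 cultures of a clone. The main fit also draws on the spread of the other miRNAs. With genotype and PDL both in the model, the spread left is how far the clones disagree on the PDL difference.

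The Dlk1-Dio3 domain is imprinted. The protein-coding genes Dlk1, Rtl1 and Dio3 are expressed from the paternal copy, while the non-coding RNAs Meg3, Rian and Mirg and the miRNAs are expressed from the maternal copy, under the control of a methylated region between Dlk1 and Meg3. The miR-379 to miR-410 cluster is one of the largest miRNA clusters of placental mammals, and it is best known from brain, embryo and placenta, where it is expressed most. In rat neurons the cluster is activated by the transcription factor Mef2, and miR-134 acts on dendritic spines through the kinase Limk1. Lats2 encodes a kinase of the Hippo pathway, and the comparison of KO with WT addresses which miRNAs differ in fibroblasts that lack it.

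The 52 names represented 37 hairpins, 15 of them with both arms on the array. In RefSeq's annotation of GRCm38.p6, all 34 hairpins with an entry lay on the plus strand, and 9 of them overlapped the non-coding gene Mirg, while the other 25 overlapped no annotated protein-coding gene or lncRNA. The 9 were the hairpins of the miR-410 end, from miR-453 and miR-154 onwards. By sequence, 49 of the 52 names matched a RefSeq mature miRNA of GRCm38.p6, often under a newer name. A miRNA selects its targets mainly through its seed, bases 2 to 8 from the 5′ end. The mature sequences below are those of members with a signal well above background in both KO cultures, called or not in the test of KO against WT, in genomic order, with the seed in capitals and the array's name given first.

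miR-379 (miR-379-5p): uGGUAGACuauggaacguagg
miR-411 (miR-411-5p): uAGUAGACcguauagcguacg
miR-411* (miR-411-3p): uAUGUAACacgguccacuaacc
miR-299* (miR-299a-5p): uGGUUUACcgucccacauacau
miR-329 (miR-329-3p): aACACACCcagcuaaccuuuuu
miR-494 (miR-494-3p): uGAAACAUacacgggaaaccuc
miR-495 (miR-495-3p): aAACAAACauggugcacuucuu
miR-376b (miR-376b-3p): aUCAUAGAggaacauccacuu
miR-376a (miR-376a-3p): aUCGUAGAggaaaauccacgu
miR-300 (miR-300-3p): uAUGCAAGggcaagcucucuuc
miR-382 (miR-382-5p): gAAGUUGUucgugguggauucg
miR-154 (miR-154-5p): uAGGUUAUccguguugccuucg
miR-377 (miR-377-3p): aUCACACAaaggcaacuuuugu
miR-541 (miR-541-5p): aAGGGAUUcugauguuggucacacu
miR-409-3p (miR-409-3p): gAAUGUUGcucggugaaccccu
miR-410 (miR-410-3p): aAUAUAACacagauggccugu

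These 16 miRNAs carried 16 different seeds. The seeds of miR-379 and miR-411, of miR-411* and miR-410, and of miR-376a and miR-376b differed at 1 of their 7 bases. Across the 49 matched members there were 48 seeds, and the only shared one belonged to the starred names miR-376c* and miR-376b*. miR-376c was also well above background in both KO cultures.

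KO fibroblasts carried miRNAs from both ends of the locus and from its middle, and WT fibroblasts carried little signal from it. A miRNA is called detected on an array where more than a share of 0.5 of the usable spots of its brightest probe carried the scanner's flag for a signal well above background. Of the 52 names, 17 were detected in both KO cultures, and 1 of them, miR-494, was detected in the WT cultures too. The other 16, or 30.8% of the members, were detected in both KO cultures and neither WT culture, against 5.38% of all 650 names. The opposite pattern, detection in both WT cultures and neither KO culture, was found for 0.308% of all names and for 0 members. The remaining 35 members were detected in no culture. Values below are processed signals of the brightest probe of each miRNA, in units scaled to the same 75th percentile on every array, and negative values lie under the local background.

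**Figure D1:**
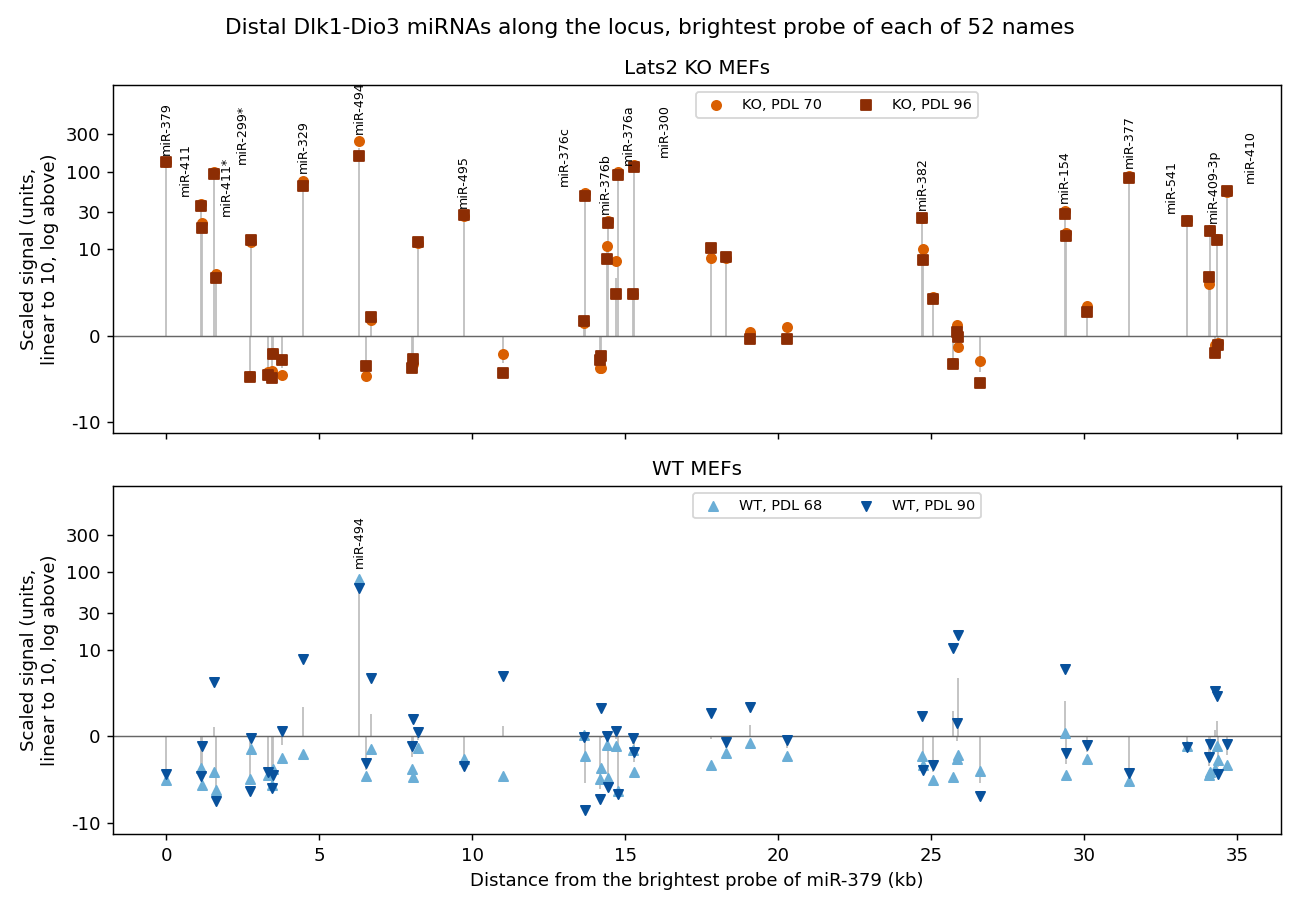
Scaled signal of the brightest probe of each of the 52 miRNAs (y axis, signal units, linear to 10 and logarithmic above) against distance from the miR-379 probe (x axis, kb), for the KO arrays in the upper panel and the WT arrays in the lower one; grey lines run to the mean of the arrays. The 17 labelled miRNAs lie between 17 and 244 units in KO, and in WT only miR-494 lies clearly above the rest.

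At the miR-379 end, 5 names from 4 hairpins were detected in KO. miR-379 (chr12:110947281-110947295, mm9) had 132 and 132 units in KO MEFs at PDL 70 and 96, against -5.07 and -4.33 units in WT MEFs at PDL 68 and 90. Both KO cultures were therefore far above both WT cultures, which read under background. Where a miRNA was not detected in a group, only a lower bound of the fold can be given: the bright group's mean against the higher of each dim array's detection level and the probe's own signal. That bound was at least 8.71-fold for miR-379, the highest of the locus, with a limma adjusted p of 2.9e-05 over all 159 miRNAs tested. miR-379 and every tested member below except miR-494 entered that test through their KO values alone. Values under 1 unit were set to a floor of 1 before the test. Where both WT values of a miRNA were at that floor, as here, they had no spread and the p-value rests on the floor.

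miR-411, 1.12 kb further on, had 38.4 and 36.2 units in KO MEFs, against -3.62 and -4.58 units in WT MEFs. It was at least 2.46-fold higher in KO (limma adjusted p = 2.9e-05). Its opposite arm miR-411* had 21.5 and 18.7 units in KO MEFs, against -5.64 and -1.08 units in WT MEFs, and was at least 1.32-fold higher (limma adjusted p = 0.0001). This was the only hairpin of the 15 with both arms on the array for which both arms were detected in KO.

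miR-299* had 98.7 and 94.0 units in KO MEFs, against -4.14 and 6.28 units in WT MEFs, and was at least 6.35-fold higher (limma adjusted p = 0.0269). Without the KO culture at PDL 70 or the one at PDL 96 this call was lost, with adjusted p-values of 0.219 and 0.201. The starred name marks what was once taken as the passenger strand, yet its partner miR-299 was detected in no culture. miR-329, one of the cluster's miRNAs that act on dendrite growth in rat neurons, had 76.2 and 66.1 units in KO MEFs, against -2.04 and 8.92 units in WT MEFs. The groups did not overlap and the bound was at least 4.68-fold, but the WT values differed from each other, and the limma adjusted p of 0.0503 missed the threshold of 0.05.

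miR-494, 6.30 kb from miR-379, stood apart from every other member. It had 244 and 157 units in KO MEFs, against 81.4 and 62.9 units in WT MEFs, so that it was detected in all 4 cultures and its fold could be measured directly. The log2 difference of KO from WT was 1.45 ± 0.29 (SE), a 2.74-fold higher signal, with a limma adjusted p of 0.0283. The KO cultures differed from each other more than for any other detected member, and the mean was 200.6 ± 61.9 units in KO MEFs and 72.2 ± 13.1 units in WT MEFs (SD, n = 2 each). The call was lost without either KO culture or without the WT culture at PDL 90, with adjusted p-values of 0.146, 0.0955 and 0.0641. It also depended on the processing. The adjusted p was 0.104 after quantile normalization, 0.0502 when the arrays were scaled to their medians, 0.0502 for the total gene signal and 0.216 when dim miRNAs were not filtered out, and the methods' t-test gave an unadjusted p of 0.0591.

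In the middle of the cluster lie the miR-376 miRNAs, whose precursors are known from brain as substrates of A-to-I RNA editing. miR-376a had 97.6 and 89.5 units in KO MEFs, against -6.33 and -6.69 units in WT MEFs. Both KO values were above both WT values, and by its bound miR-376a was at least 6.16-fold higher (limma adjusted p = 2.9e-05). miR-376c had 52.9 and 48.8 units in KO MEFs, against -2.21 and -8.51 units in WT MEFs, and was at least 3.35-fold higher (limma adjusted p = 2.9e-05). miR-376b had 22.8 and 22.1 units in KO MEFs, against -4.79 and -5.84 units in WT MEFs, and was at least 1.48-fold higher (limma adjusted p = 3.0e-05). The starred arms of the 3 hairpins were detected in no culture.

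The mature miR-376a and miR-376b differ at 3 of 21 bases, shown in capitals, so that signal shared between their probes is possible and was not tested.

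miR-376a-3p: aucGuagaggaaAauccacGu
miR-376b-3p: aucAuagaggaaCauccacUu

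The hairpin of miR-376a (68 bases) carries both arms, shown here in capitals with the starred arm first. It shows what the array can and cannot read: a probe matches an arm and not the loop or stem ends around it.

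Mir376a hairpin: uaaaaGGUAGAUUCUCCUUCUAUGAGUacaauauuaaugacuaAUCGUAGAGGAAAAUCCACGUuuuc

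On either side of the miR-376 hairpins, miR-495 and miR-300 were high in KO. miR-495 had 26.8 and 27.6 units in KO MEFs, against -2.62 and -3.40 units in WT MEFs, and was at least 1.79-fold higher (limma adjusted p = 2.9e-05). miR-300 had 122 and 115 units in KO MEFs, against -4.08 and -1.80 units in WT MEFs, at least 7.78-fold higher with the same adjusted p. The probe that gave the miR-300 values has a stretch of 16 of its 18 bases in common with miR-381, the next hairpin. miR-381 has its own probes, which read 8.97 and 10.3 units in KO MEFs and -3.26 and 2.75 units in WT MEFs, detected in no culture. How much of the miR-300 signal came from miR-381 was not tested. The mature sequences are given with the shared run in capitals, followed by the brightest probe of each.

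miR-300-3p: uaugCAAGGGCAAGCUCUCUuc
miR-381-3p: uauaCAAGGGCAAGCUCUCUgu
miR-300 probe: gaagagagcttgcccttg
miR-381 probe: acagagagcttgccc

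miR-495 and miR-543 share a run of 12 bases, and the miR-299* probe also matches the RefSeq entry miR-299b-5p over all of its 20 bases. Among the other detected members, no brightest probe shared more than 11 consecutive bases with another mouse miRNA of the RefSeq table.

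After miR-300 came the longest stretch without a detected member, 9.42 kb up to miR-382, which holds miR-381, miR-487b, miR-539 and miR-544. miR-382 had 25.3 and 25.4 units in KO MEFs, against -2.30 and 2.40 units in WT MEFs, and was at least 1.67-fold higher (limma adjusted p = 0.0093). This call too was lost without the KO culture at PDL 70 or the one at PDL 96, with adjusted p-values of 0.141 and 0.128. miR-154 had 31.2 and 28.7 units in KO MEFs, against 0.386 and 7.81 units in WT MEFs. It was at least 1.98-fold higher and its groups did not overlap, but the limma adjusted p of 0.0767 missed the threshold. As for miR-329, the WT culture at PDL 90 read above the one at PDL 68, and without either WT culture both miR-329 and miR-154 passed, with adjusted p-values from 0.0003 to 0.0023.

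At the miR-410 end, further into Mirg, 4 miRNAs were high in KO and under background in WT. miR-377 had 87.7 and 82.3 units in KO MEFs, against -5.11 and -4.25 units in WT MEFs, and was at least 5.60-fold higher (limma adjusted p = 2.9e-05). miR-410 (chr12:110981977-110981994, mm9), the last member, had 54.0 and 56.3 units in KO MEFs, against -3.34 and -0.830 units in WT MEFs, and was at least 3.64-fold higher (limma adjusted p = 2.9e-05). miR-541 and miR-409-3p were the dimmest of the end. miR-541 had 23.5 and 23.0 units in KO MEFs, against -1.06 and -1.27 units in WT MEFs, and was at least 1.53-fold higher (limma adjusted p = 2.9e-05). miR-409-3p had 17.5 and 17 units in KO MEFs, close to the detection level, against -4.13 and -0.925 units in WT MEFs, and was at least 1.13-fold higher (limma adjusted p = 3.4e-05).

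**Figure D2:**
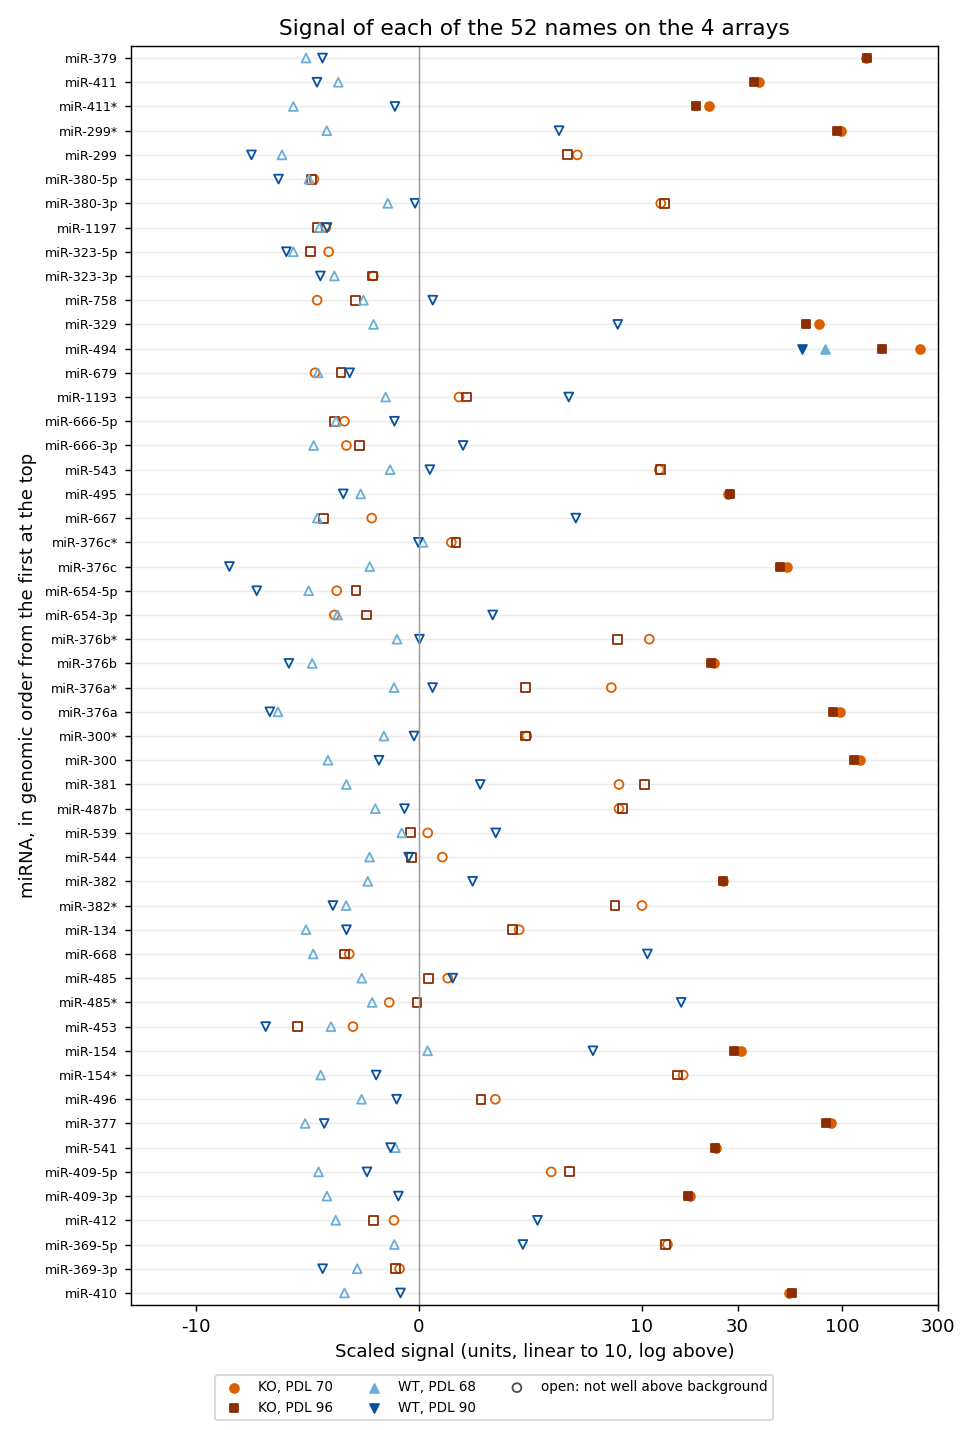
Scaled signal (x axis, signal units, linear to 10 and logarithmic above) of the brightest probe of each of the 52 miRNAs, listed in genomic order from miR-379 at the top to miR-410 at the bottom, on the KO arrays at PDL 70 and 96 and the WT arrays at PDL 68 and 90; filled symbols are signals well above background. The KO points of 16 miRNAs are filled while their WT points are open, miR-494 is filled on all 4 arrays, and 35 miRNAs are open throughout.

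The limma fit ran over the 159 miRNAs detected in both cultures of KO or of WT. Of the 17 members among them 15 were called higher in KO and 0 lower, beside 43.4% of all tested miRNAs called higher, 14.5% called lower and 57.9% called in either direction. The split of calls over all miRNAs moved with the scaling, from 69 higher and 23 lower here to 38 higher and 36 lower with median scaling and 50 higher and 43 lower with quantile normalization, while 14 members were called higher and 0 lower with either. The 2 members that were not called were miR-329 and miR-154. Nearly all of these members entered the test through their KO values alone and so had to differ, and the count is a description. Their median log2 difference was 4.76 on the fitted scale, which depends on the floor of 1 unit set under the WT values, and 1.45 with the 16 miRNAs at their bound, beside 0.31 over all tested miRNAs. The adjusted p-values of members with both WT values at the floor rest on that floor, since the floor gives those values no spread. The 2 cultures per group allow an exact permutation p of no less than 0.333 for a single miRNA, so no permutation test could pass the threshold.

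The bounds depended on how the arrays were scaled. They had a median of 2.90-fold and ran from 1.13-fold for miR-409-3p to 8.71-fold for miR-379. With quantile normalization 10 of the 16 bounds stayed above 1, with median scaling 14, with normexp background correction 14 and with no scaling 16. The normexp setting added an offset of 50 units to every signal, which draws every ratio towards 1. miR-411* and miR-409-3p had bounds under 1 with all 3 of the corrections that lowered the count, while miR-379, miR-411, miR-299*, miR-329, miR-376c, miR-376a, miR-300, miR-154, miR-377 and miR-410 stayed above 1 with each. These scalings were applied to the bounds after the data were seen.

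**Figure D3:**
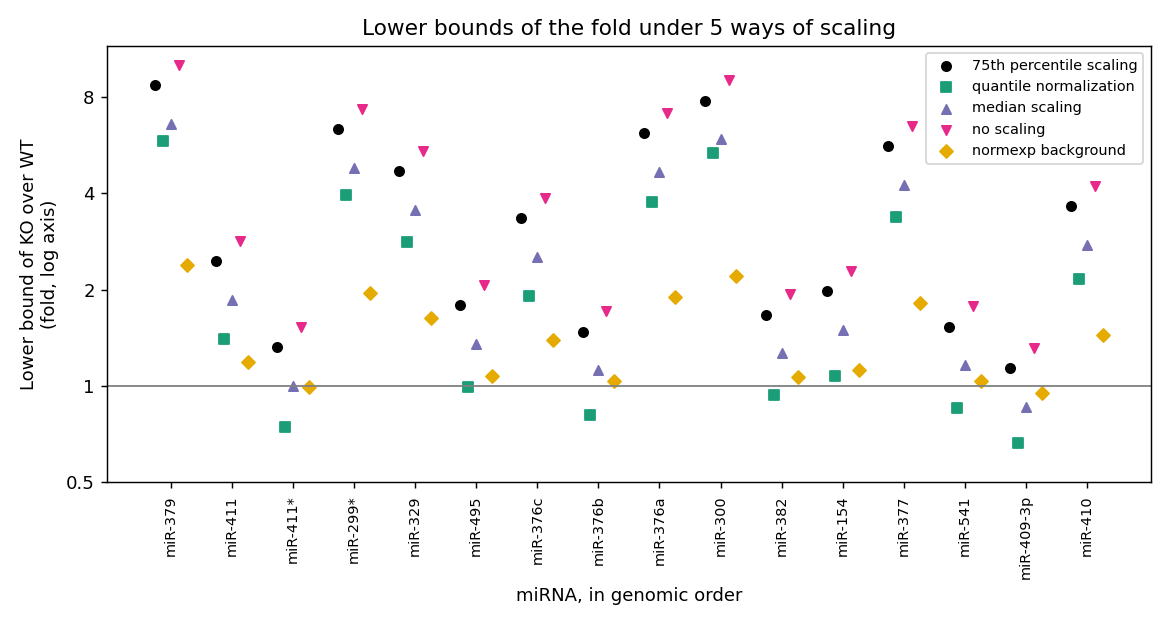
Lower bound of the KO over WT fold (y axis, logarithmic) for the 16 miRNAs detected in KO alone, in genomic order, under 5 ways of scaling or background correction. The bounds of miR-379 range from 2.39 with normexp to 10.1 with no scaling, while those of miR-411* and miR-409-3p cross the line at 1. The normexp setting adds 50 units to every signal, which draws its bounds towards 1.

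Each miRNA was read by 1, 2 or 4 probes of different lengths, all ending at the 3′ end of the miRNA, which makes the probes a check on each other. Probes were 10 to 22 bases long. All 137 probes of matched members reached the last base of the mature sequence, and 16 reached base 2, so that most signals report the 3′ part of the molecule and part of the seed at most. The 16 miRNAs detected in KO alone had 34 probes, of which 24 passed the same criterion in both KO cultures and 0 in a WT culture. In 33 of these 34 probes both KO signals were above both WT signals. The brightest probe of each of the 16 miRNAs had defined its detection, so those probes had to pass in KO and not in WT. Only the other probes, which overlap the brightest in sequence, add to these counts.

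The exception was the shorter probe of miR-411*, with 1.47 and 4.44 units in KO MEFs against -4.91 and 2.29 units in WT MEFs, so that miR-411* rests on its longer probe. For several other miRNAs the shorter probe was dim but went the same way. The shorter miR-377 probe had 10.9 and 10.1 units in KO MEFs, against -5.30 and -5.52 units in WT MEFs. The shorter miR-409-3p probe had 10.1 and 11.1 units in KO MEFs, against -4.41 and -0.970 units in WT MEFs. The shorter miR-410 probe, by contrast, had 53.5 and 52.5 units in KO MEFs, almost the same as the longer one, against -4.20 and -1.23 units in WT MEFs.

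The 4 probes of miR-376c formed a series. Its probe of 20 bases had 41.1 and 38.1 units in KO MEFs against -3.78 and -7.56 units in WT MEFs, and its probe of 19 bases had 10.4 and 11.3 units in KO MEFs against -3.65 and -4.21 units in WT MEFs. Its shortest probe, of 18 bases, had 0.164 and -0.853 units in KO MEFs against -3.30 and -5.28 units in WT MEFs, which is background on every array. The longest probe was the brightest for 16 of the 17 miRNAs detected in KO.

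miR-494 was the exception here too, since its shorter probe of 14 bases, which reads bases 9 to 22 and none of the seed, was the brighter. Its probe of 15 bases had 101 and 52 units in KO MEFs, against 24.7 and 17.6 units in WT MEFs. Both of its probes were thus above background in all 4 cultures, in the same order of cultures. On the KO arrays the spots of a single brightest probe varied with a coefficient of variation of 4.26% to 21.7%, median 10.7%. For all 17 miRNAs every usable KO spot was above every WT spot of the same probe, although spots of an array are not independent replicates. Except for miR-494, these miRNAs were chosen by flagged KO spots and unflagged WT spots, which nearly sets this order beforehand. The share of all names with this order was not counted.

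**Figure D4:**
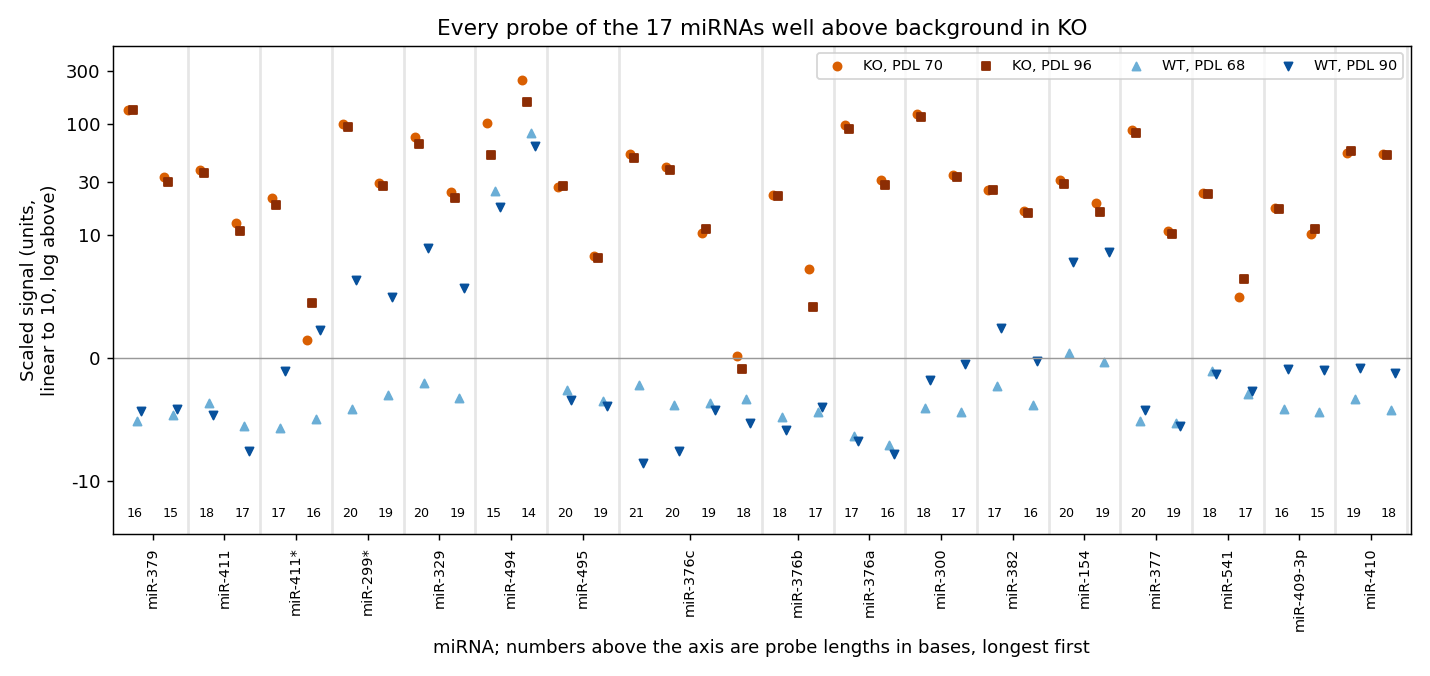
Scaled signal (y axis, signal units, linear to 10 and logarithmic above) of every probe of the 17 miRNAs detected in KO, with the longest probe of each on the left, its length in bases printed above the x axis, and the KO arrays left of the WT arrays within each probe. KO points lie above WT points for every probe except the shorter one of miR-411*, and miR-494 alone has WT points well above the rest.

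Within the KO clone, the signals hardly moved between PDL 70 and PDL 96. For the 16 miRNAs detected in KO alone, the ratio of PDL 96 to PDL 70 ran from 0.867 for miR-329 to 1.04 for miR-410, with a median of 0.947, and 12 of the 16 were lower at PDL 96. The 138 names outside the locus that were detected in both KO cultures had ratios from 0.371 to 1.35 with a median of 0.995, and 53.6% of them were lower at PDL 96. The difference between members and other names was not tested. miR-494 again stood out, with a ratio of 0.642 in KO between PDL 96 and PDL 70 and of 0.773 in WT between PDL 90 and PDL 68.

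In the fit of higher against lower PDL with genotype in the model, limma called 0 members and 0.0% of all 159 miRNAs. At an unadjusted p under 0.05 there was 1 member, beside 5.03% of all tested miRNAs. That member was miR-494, with a log2 difference of -0.51 ± 0.11 (SE) and an adjusted p of 0.826.

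**Figure D5:**
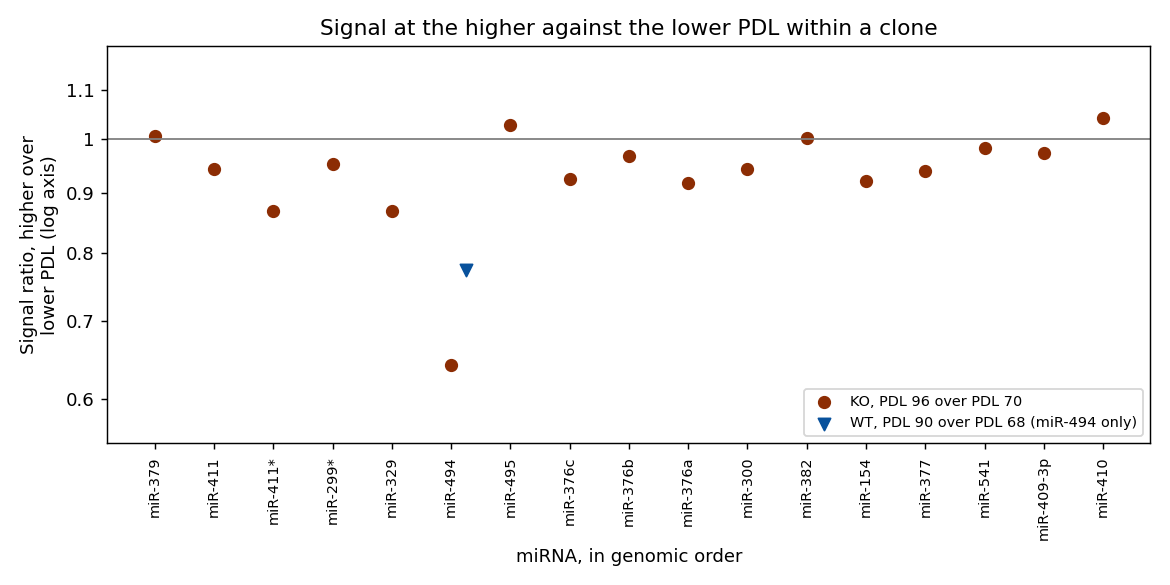
Ratio of the signal at the higher PDL to that at the lower PDL (y axis, logarithmic) for the 17 miRNAs detected in KO, in genomic order; circles are KO (PDL 96 over 70) and the triangle is miR-494 in WT (PDL 90 over 68). The KO ratios lie between 0.867 and 1.04, except that of miR-494 at 0.642.

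In the hairpins with both arms on the array, usually 1 arm was detected in KO. Of the 15 hairpins, 8 had 1 arm detected in both KO cultures, 1 had both (miR-411) and 6 had neither. The detected arm was the 3′ arm in 5 hairpins (miR-376c, miR-376b, miR-376a, miR-300 and miR-409) and the 5′ arm in 3 (miR-299, miR-382 and miR-154). Since each arm has its own probe, the levels of the arms were not compared. Of the 9 starred names, 2 were detected in KO, miR-411* and miR-299*.

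The 35 members detected in no culture were miR-299, miR-380-5p, miR-380-3p, miR-1197, miR-323-5p, miR-323-3p, miR-758, miR-679, miR-1193, miR-666-5p, miR-666-3p, miR-543, miR-667, miR-376c*, miR-654-5p, miR-654-3p, miR-376b*, miR-376a*, miR-300*, miR-381, miR-487b, miR-539, miR-544, miR-382*, miR-134, miR-668, miR-485, miR-485*, miR-453, miR-154*, miR-496, miR-409-5p, miR-412, miR-369-5p and miR-369-3p. Their signals ran from -4.72 to 16.1 units (median 1.05) and from -5.46 to 15.0 units (median -0.0929) in KO MEFs at PDL 70 and 96. In WT MEFs they ran from -6.15 to 0.175 units (median -3.27) at PDL 68 and from -7.52 to 15.7 units (median -0.225) at PDL 90. In 21 of the 35, or 60.0%, both KO signals were above both WT signals, beside 27.6% of all 474 names of the array detected in no culture and 25.1% of the 439 of these that were not members. In 1 of the 35, miR-758, both WT signals were above both KO signals, with -4.57 and -2.86 units in KO MEFs and -2.49 and 0.616 units in WT MEFs. It is named for this count, after its values were seen. The share of all undetected names with WT above KO in this way was not counted. The filter on dim miRNAs kept these 35 out of the limma test. With no filter, limma called 11 of them higher in KO and 0 lower, beside 7.69% of all 650 names called higher, and signals under 1 unit were again set to that floor.

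The scanner's own flag for a detected gene, a less strict criterion, marked 4 further members in both KO cultures and neither WT culture. These were chosen for mention after their values were seen. miR-154* had 16.1 and 15.0 units in KO MEFs, against -4.41 and -1.92 units in WT MEFs. miR-380-3p had 12.4 and 13 units in KO MEFs, against -1.40 and -0.177 units in WT MEFs. miR-543 had 12.2 and 12.4 units in KO MEFs, against -1.30 and 0.487 units in WT MEFs, and miR-369-5p had 13.4 and 13.1 units in KO MEFs, against -1.11 and 4.66 units in WT MEFs. With them, 20 members were flagged in both KO cultures and neither WT culture, beside 5.85% of all 650 names. With the flag as the filter, these 4 entered the limma test through their KO flags alone, so that calls among them are a description. It called miR-154*, miR-380-3p and miR-543 higher in KO, with adjusted p-values from 5.5e-05 to 6.2e-05. Both WT values of each of these were set to the floor of 1 unit and so had no spread, and the p-values rest on that floor. miR-369-5p was not called (limma adjusted p = 0.0787). miR-134, the member best known from neurons, had 4.49 and 4.19 units in KO MEFs, against -5.07 and -3.26 units in WT MEFs, and was detected in no culture. With no filter, limma called miR-134 higher in KO (adjusted p = 0.00459). Both of its WT values were set to the floor and so had no spread, and this p-value rests on that floor.

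In WT MEFs the flag marked 3 members. They were miR-494 on both arrays, and miR-668 and miR-485* on the array at PDL 90 alone. miR-485* had -1.34 and -0.0929 units in KO MEFs, against -2.10 and 15.7 units in WT MEFs, and miR-668 had -3.13 and -3.33 units in KO MEFs, against -4.75 and 10.7 units in WT MEFs. The WT array at PDL 90 was also the one with the higher WT values of miR-299*, miR-329 and miR-154, and its median over all spots was 0.595 units, beside -0.585 and -0.581 units in KO MEFs at PDL 70 and 96 and -2.01 units in WT MEFs at PDL 68.

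Detection in KO fell mostly on names with 2 probes. Of the 17, 16 had 2 probes and 1, miR-376c, had 4, while the 52 members comprised 30 names with 2 probes, 21 with 4 and 1 with a single probe. The base composition of the mature miRNAs was similar in detected and other members. The median GC content was 45.5% over the 16 detected miRNAs with a RefSeq sequence (range 36.4% to 54.5%) and 45.5% over the 33 others (range 23.8% to 72.7%).

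The neighbouring proximal part of the same domain, towards Dlk1, went the same way. Of its 19 names, 8 (42.1%) were detected in both KO cultures and 0 in a WT culture. Over all 650 names, 5.38% were detected in both KO cultures and neither WT culture. All 8 entered the limma test through their KO values alone and so had to differ, and the count of calls is a description. Of the 8, limma called 7 higher and 0 lower, beside 43.4% and 14.5% of all tested miRNAs. Their bounds ran from 1.12-fold to 7.41-fold. Elsewhere in the genome, 11 names were detected in both KO cultures and neither WT culture. Of 9 miRNAs from other imprinted loci (miR-675, miR-483, miR-296, miR-298 and miR-335 arms), 2 were detected in a culture. miR-296-5p had 41.4 and 41.3 units in KO MEFs, against 5.31 and 16.0 units in WT MEFs, at least 2.68-fold higher, with a limma adjusted p of 0.0578 that missed the threshold. miR-483* had 10.8 and 8.78 units in KO MEFs, against 1.83 and 22.3 units in WT MEFs, and was detected in the WT culture at PDL 90 alone.

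The cells carried fibroblast miRNAs in both genotypes. Of 8 fibroblast markers 7 were detected in every culture, the exception being miR-145, and their summed signal was 26062 and 24784 units in KO MEFs, against 29435 and 23682 units in WT MEFs. Of these, limma called 1 higher in KO, miR-199a-3p, by 0.32 on the log2 scale. None of 7 neural, 9 pluripotent, 7 epithelial, 6 blood and 2 endothelial markers, nor the liver marker miR-122, was detected in any culture. The muscle list had 1 of 4 in each culture, miR-206, with 31.5 and 34.7 units in KO MEFs against 33.9 and 27.1 units in WT MEFs. In total 24.2% and 24.8% of all names were detected in KO MEFs, against 19.2% and 19.8% in WT MEFs. All 4 arrays were on 1 slide, the KO arrays at positions 3 and 4 and the WT arrays at positions 1 and 2, so that slide position and genotype cannot be told apart. In such bulk RNA, fewer cells that express a miRNA and less of it per cell cannot be told apart either.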

How the data were processed

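Total RNA of the 4 cultures was labelled with Cy3 and hybridised by the authors to Agilent mouse miRNA arrays. Per the file headers and the submitters' processing notes, Agilent Feature Extraction 10.5.1.1 gave each spot a processed intensity (background-subtracted, linear scale, not normalized between arrays) and flags for spots well above background and outliers. The deposited series matrix holds the same intensity rounded. Probe positions are those of the files on mm9. Control and outlier spots were left out, and the spots of a probe were averaged. To put the arrays on one scale, each was divided by the 75th percentile of the 192 probes detected on every array (531 and 562 units in KO, 488 and 458 in WT) and multiplied by the mean of the 4 percentiles, values under 1 were set to 1, and log2 was taken. Each miRNA was its brightest probe. The lowest signal well above background was 12.5 to 15.5 units on an array, which together with the 2 arrays per group limits the precision. KO was compared with WT in limma 3.58.1 (R 4.3.3; lmFit and eBayes, two-sided, Benjamini-Hochberg over 159 miRNAs), after a check on simulated data. The detection level of an array in the lower bounds was its lowest signal among probes well above background (log2 3.93 and 3.64 in KO, 3.89 and 3.95 in WT). Alternatives covered scaling, background correction, filters, the floor, the probe summary, the methods' t-test and leaving out each array. Members well above background on at least 1 array are named with values, the others are named with ranges. The members and lists were chosen with earlier results of these data known.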

Additional observations from a re-analysis of the deposited data

How the results depend on the processing

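All 17 tested members kept a higher signal in KO under every alternative in which they were tested, and 0 members were called lower under any. All but miR-494 entered the test through their KO values alone, so their direction was set by the filter and its persistence is a description. The alternatives include the percentile over all probes, which cannot scale every array. The number of members called higher was 15 with the scaling used here, 14 with quantile normalization, 14 with median scaling, 16 with no scaling and 16 with normexp. It was 17 with a floor of 10 units, 13 with the total gene signal and 15 with the PDL rank as a covariate. That last fit pairs the KO and WT arrays of like PDL rank. Over all 159 tested miRNAs the number called higher was 69 here, 50 with quantile normalization, 38 with median scaling and 92 with no scaling. It was 64 with normexp, 77 with a floor of 10 units, 43 with the total gene signal and 52 with the PDL rank. With the gene-level flag as filter, with no filter and with a filter for all 4 arrays, 73, 50 and 42 of all names tested were called higher. Among members the number was 18 of 21, 23 of 52 and 1 of 1 (miR-494), in that order. With the 75th percentile over all probes it was 0, and 0 at an unadjusted p under 0.05, since that percentile was -0.104 units on the WT array at PDL 68 and cannot scale it. Leaving out 1 array gave 12 to 17 calls: without either KO array miR-299*, miR-494 and miR-382 were lost, without the WT array at PDL 90 miR-494 was lost, and without either WT array miR-329 and miR-154 were gained. The methods' t-test with a fold of 2 and an unadjusted threshold gave 13 members, and 12 after Benjamini-Hochberg. Over all tested miRNAs these gave 39 and 56 calls. The median difference over all tested miRNAs was 0.31 (log2) with the scaling used here, 0.14 with quantile normalization, -0.09 with median scaling and 0.52 with no scaling, so a share of each member's difference moves with the scaling.

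The adjusted p of miR-494 ranged from 0.00429 to 0.216 over its alternatives, with log2 differences from 0.90 to 1.77. These ranges leave out scaling by the percentile over all probes, which cannot scale every array. That setting gave an adjusted p of 0.444 and a log2 difference of 5.05. The adjusted p was 0.104 with quantile normalization and 0.0502 with median scaling. The cause of the spread among the other alternatives was not tested. The members detected in both KO cultures and neither WT culture numbered 16, and 15 where every spot had to carry the flag, 16 with any probe in place of the brightest and 20 with the gene-level flag. The median bound of 2.90-fold was 1.66 with quantile normalization, 2.20 with median scaling, 3.36 with no scaling and 1.29 with normexp. The 50 units that normexp adds to every signal draw its bounds and log2 differences towards no change. The PDL comparison called 0 members under each alternative. A slide block could not be run, since all 4 arrays were on 1 slide.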
